A study of Homo sapiens with 21 samples.

Results

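The 42 genes described here make ribosomes: they encode RNA polymerase I subunits and its partners, and the nucleolar proteins that modify, cut and fold ribosomal RNA. They were chosen by symbol, with earlier results of these data known, out of 26475 genes in the table. The choice took all symbols of the UTP, NOP and POLR1A to POLR1E series, plus 22 named genes of the same pathway. All 42 passed the filter on low counts, as did 15062 genes in all. RNA sequencing of SK-MEL-147, an established human melanoma line, covered 7 groups with 3 libraries each: cells given TP-472, JQ-1, GSK-591, MS023, GSK-484 or UNC0642, and untreated cells. JQ-1 occupies the bromodomains of BET proteins, and TP-472 those of BRD7 and BRD9. GSK-591 inhibits the arginine methyltransferase PRMT5, MS023 the type I arginine methyltransferases, GSK-484 the citrullinating enzyme PADI4, and UNC0642 the lysine methyltransferases EHMT1 and EHMT2. All groups share the same cell line, whose libraries were made from poly-A selected RNA. The sources used here give no dose, no treatment time and no vehicle for the untreated cells.

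A ribosome begins with RNA polymerase I copying the ribosomal DNA repeats into a long precursor RNA inside the nucleolus. Small nucleolar ribonucleoproteins then guide methylation (box C/D particles) and pseudouridylation (box H/ACA particles) of that RNA. A large complex called the small subunit processome folds and cleaves the small subunit part, while a separate series of factors assembles the large subunit. Many of these genes are known targets of the transcription factor MYC, which binds E-boxes, and the pathway is often raised in melanoma and other cancers. Ribosomal RNA itself has no poly-A tail, so the values below are messenger RNA levels of the machinery and not rates of ribosome production.

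Summed counts ran from 20978182 to 78776788 per library (35089548 to 47741066 in untreated cells), and the 42 genes took 0.462 to 0.528% of them. Ribosomal RNA was not absent after poly-A selection: its 21 genes in the table took 4.99 to 10.6% of these sums. In untreated cells the share was 4.99 to 9.47%. The melanocyte factor SOX10 was at 349 to 603 CPM (counts scaled by TMM to a common library size) and MITF at 9.24 to 19.0 CPM, while the pigment genes PMEL, MLANA, TYR, DCT and TYRP1 did not exceed 0.586 CPM. AXL, high in dedifferentiated melanoma, was at 1770 to 2065 CPM, and 10 markers of immune, epithelial and endothelial cells did not exceed 1.202 CPM. The untreated libraries stood apart in how counts varied with base composition. The slope of log2 CPM per 10 percentage points of transcript GC content averaged -0.248 with TP-472, -0.251 with JQ-1, -0.240 with GSK-591, -0.196 with MS023, -0.263 with GSK-484 and -0.295 with UNC0642, against -0.402 in untreated cells. All 18 treated libraries lay between -0.310 and -0.148, above the untreated range of -0.450 to -0.369. Comparisons with untreated cells are therefore given with and without the GC trend of each library. A gene is called where its Benjamini-Hochberg adjusted p from edgeR's quasi-likelihood test, over all genes tested, is under 0.05. The 6 comparisons with untreated cells share the same 3 untreated libraries.

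In untreated cells the nucleolar chaperone NPM1 had the highest level per length of transcript, 757 CPM per kilobase. FBL, the methyltransferase of box C/D particles, followed at 191 CPM per kilobase, and NCL, an abundant nucleolar RNA-binding protein, at 160 CPM per kilobase. On the same scale the lowest levels were 2.30 for POLR1A, the largest subunit of RNA polymerase I, and 3.45 for UTP14C. Lengths are those of the longest coding transcript, so a gene such as POLR1A with a long annotated transcript of 12749 bases reads low. Summed over the 42 genes, TMM-scaled levels were 5009 ± 53.4 CPM with JQ-1 and between 4895 ± 81.3 (UNC0642) and 5087 ± 207 CPM (GSK-484) with the other compounds, against 4957 ± 78.9 CPM in untreated cells (SD, n = 3 each). The range of the sum over 3 libraries overlapped the untreated range with each of the 6 compounds. This held only under TMM scaling and with NPM1 in the sum. As a share of all counts, NPM1 included, the 42 genes took 0.462 to 0.479% with JQ-1. That lay below the untreated range of 0.496 to 0.528%, which the ranges of the other 5 compounds overlapped. Without NPM1 the TMM-scaled JQ-1 range, 3499 to 3564 CPM, lay below the untreated range of 3601 to 3640 CPM. The ranges with TP-472 (3679 to 3742 CPM), MS023 (3651 to 3720 CPM) and GSK-484 (3661 to 3790 CPM) lay above it, and those with GSK-591 and UNC0642 overlapped it. The sum without NPM1 still held DDX21, at 322, 321 and 314 CPM with JQ-1 and 468, 438 and 450 CPM in untreated cells. No sum was taken without DDX21 as well, so the lower JQ-1 range does not describe the members in general.

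Promoter sequences of 300 bases, from 250 bases before to 50 bases from the annotated start, were found in RefSeq (GRCh38.p14) for 34 of the 42 genes. On either strand, the E-box CACGTG was present in 12 of the 34 (35.3%), against 1407 of 15843 promoters of protein-coding genes (8.88%). The ETS-type motif CCGGAAG was in 11 of 34 (32.4%), against 14.2% of all, and the longer motif of the factor BANP in 1 of 34 (2.94%), against 0.669% of all. Of the 14 E-boxes found, 10 began within 15 bases of the start site. The letters of the 3 motifs cannot overlap each other, although copies of CCGGAAG can overlap on opposite strands. A letter match is a description and not evidence that a factor was bound.

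The promoters of 4 genes with large and opposite changes under JQ-1 are shown, with motif letters in capitals and the start site at base 251. RRP9, which rose, has an E-box at base 246 and 1 ETS-type motif (chr3:51941855-51942154, minus strand). POLR1C, which also rose, has 3 ETS-type motifs, the last 2 overlapping on opposite strands (chr6:43516839-43517138, plus strand). BRIX1 (chr5:34915461-34915760, plus strand) and GAR1 (chr4:109815260-109815559, plus strand), which fell, have 1 ETS-type motif each and no E-box. These 4 were picked with their values known and do not stand for the rest: NOP9, UTP6 and NOP56, which also rose with JQ-1, hold none of the 3 motifs, and UTP20, MRTO4 and NOP10, which were lower, hold an E-box.
RRP9: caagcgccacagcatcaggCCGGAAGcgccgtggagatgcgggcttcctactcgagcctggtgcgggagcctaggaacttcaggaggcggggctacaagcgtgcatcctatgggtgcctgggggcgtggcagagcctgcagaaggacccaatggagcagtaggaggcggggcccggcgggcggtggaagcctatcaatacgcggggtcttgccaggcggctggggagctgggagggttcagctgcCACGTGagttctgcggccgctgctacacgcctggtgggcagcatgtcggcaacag
POLR1C: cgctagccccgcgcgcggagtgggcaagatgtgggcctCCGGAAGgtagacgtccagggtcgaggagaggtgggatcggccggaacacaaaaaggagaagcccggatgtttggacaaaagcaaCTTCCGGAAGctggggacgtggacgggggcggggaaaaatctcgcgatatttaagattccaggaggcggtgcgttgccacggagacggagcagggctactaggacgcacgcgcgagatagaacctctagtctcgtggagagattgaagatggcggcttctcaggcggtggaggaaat
BRIX1: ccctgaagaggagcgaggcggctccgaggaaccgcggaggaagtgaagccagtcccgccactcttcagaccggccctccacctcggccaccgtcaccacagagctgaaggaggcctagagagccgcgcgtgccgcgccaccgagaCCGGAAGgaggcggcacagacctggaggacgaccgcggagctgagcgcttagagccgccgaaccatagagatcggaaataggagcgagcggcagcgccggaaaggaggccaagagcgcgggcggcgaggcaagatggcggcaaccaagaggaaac
GAR1: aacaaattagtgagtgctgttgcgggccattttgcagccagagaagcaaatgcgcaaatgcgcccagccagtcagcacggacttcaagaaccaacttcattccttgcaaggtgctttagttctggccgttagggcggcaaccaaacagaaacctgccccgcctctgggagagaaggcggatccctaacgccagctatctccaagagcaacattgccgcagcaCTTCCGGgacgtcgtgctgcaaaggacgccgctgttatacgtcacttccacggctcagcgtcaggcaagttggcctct

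JQ-1 moved these genes in both directions. With JQ-1, 15 of the 42 were higher (35.7%) and 15 lower (35.7%) than in untreated cells, where 35.7% and 37.6% of all genes tested were called higher and lower. The median log2 fold change was -0.0038 for the 42 and -0.0064 for all genes. Of the 42, 5 (11.9%) changed at least 1.5-fold, against 36.6% of all genes tested, and the quartiles of their log2 fold changes were -0.21 and 0.15, against -0.51 and 0.40. In bulk RNA, fewer cells expressing a gene and less RNA per cell cannot be told apart. With the GC trend removed, 19 members were higher and 13 lower (background 43.1 and 32.3%). That fit moved the median log2 fold change to 0.088 for the 42 and to 0.087 for all genes. All 15 higher calls and 12 of the 15 lower calls were kept in that fit. NCL, NOP58, POLR1B and WDR43 were then called higher too and PPAN lower, while POLR1D, NOP10 and UTP15 lost their calls.

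Scaling by total counts instead of TMM gave 7 members higher and 22 lower with JQ-1, and moved the median of all genes to -0.15. Under it 10973 of 15062 genes were called, 37.3% of them higher, so all genes shifted and not only these. The 7 that stayed higher were BOP1, NOP9, RRP9, POLR1E, UTP6, POLR1C and NOP56, and all 15 lower members were called lower there too. The smaller rises of NOP2, RRP12, NOP14, UTP14A, NAT10, NPM1, PES1 and GNL3 were not called under that scaling, with values from -0.059 to 0.083.

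**Figure D1:**
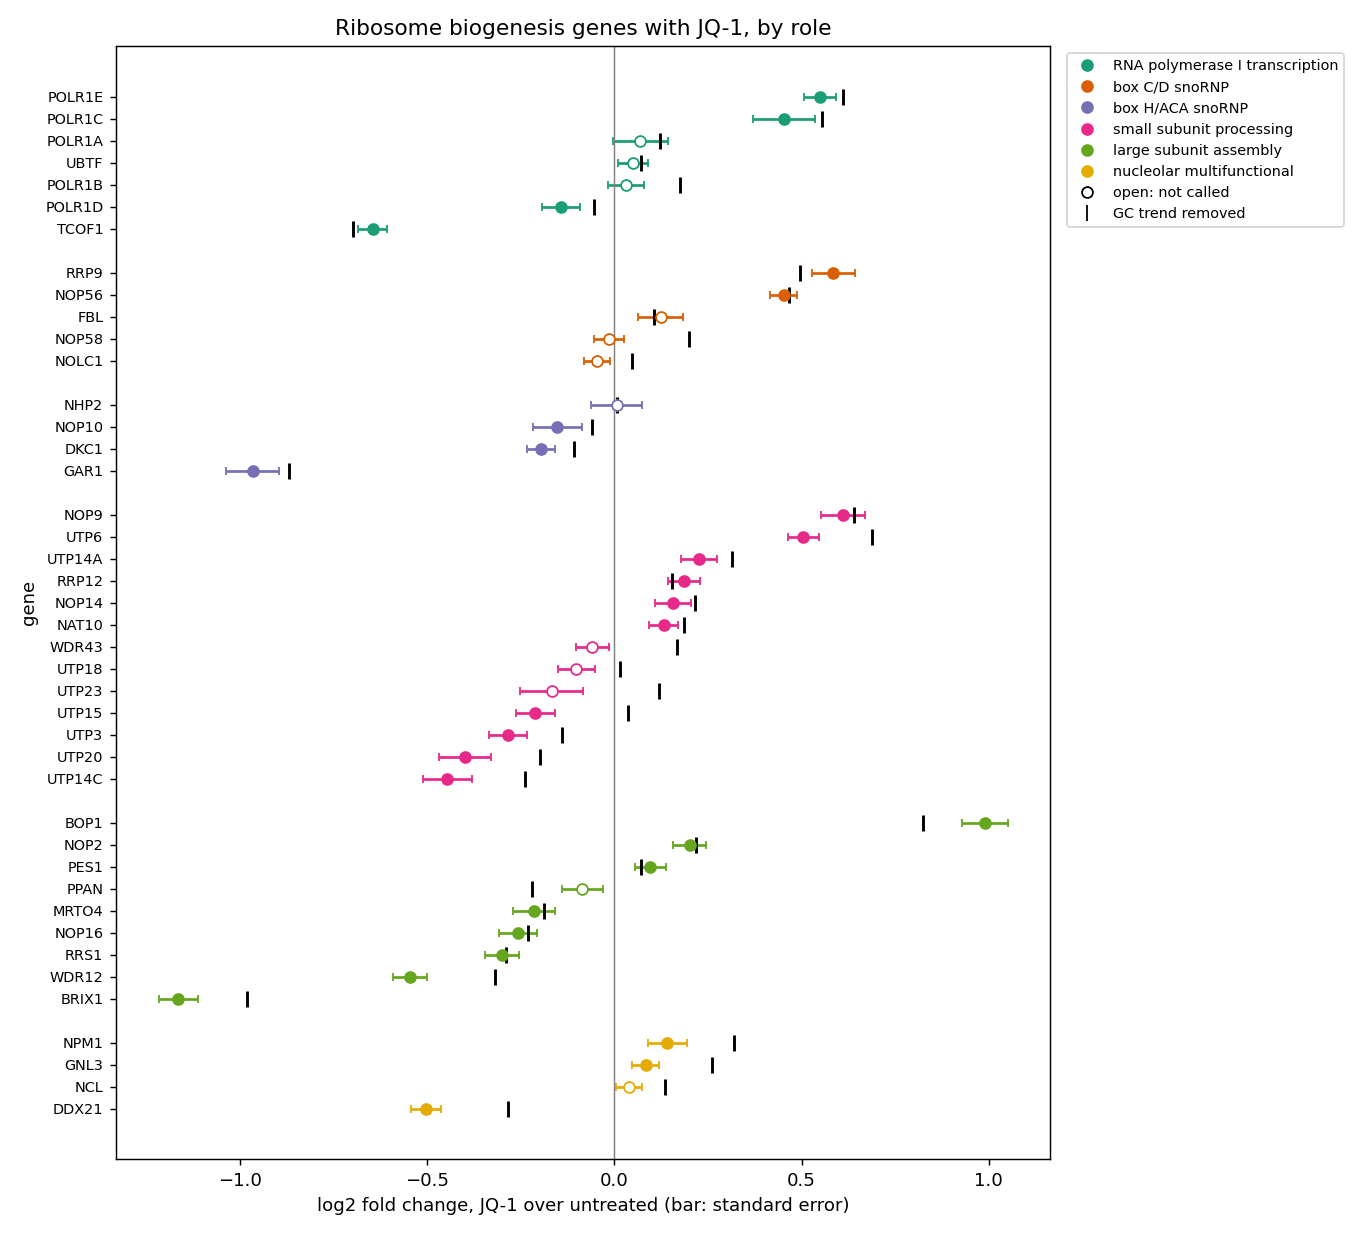
Log2 fold change of the 42 genes, JQ-1 over untreated cells (x axis, bars are standard errors), grouped by role down the page. Filled points are called and ticks mark the value with the GC trend removed. BOP1 lies farthest right at 0.99 and BRIX1 farthest left at -1.17, both in the large subunit group.

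Among genes of RNA polymerase I transcription, 2 of 7 were higher with JQ-1, 2 lower and 3 not called. POLR1E, a subunit specific to RNA polymerase I, had 62.3, 58.2 and 60.2 CPM with JQ-1, against 40.5, 43.0 and 40.1 CPM in untreated cells. All 3 JQ-1 libraries were above all untreated ones, and the log2 fold change was 0.55 (SE 0.043, adjusted p = 7.48e-11). POLR1C, a subunit shared with RNA polymerase III, rose by 0.45 (SE 0.083, adjusted p = 4.03e-05), at 19.8, 20.1 and 18.7 CPM with JQ-1 and 12.7, 15.2 and 14.99 CPM in untreated cells. TCOF1, the treacle protein that acts in transcription of ribosomal DNA, had 94.0, 97.0 and 95.9 CPM with JQ-1, against 150, 149 and 149 CPM in untreated cells. Its fall of -0.65 on the log2 scale (SE 0.038, adjusted p = 4.45e-13) left no overlap between the groups. POLR1D, the partner of POLR1C, was lower by a small amount (log2 fold change -0.14, adjusted p = 0.0143) and lost its call with the GC trend removed (-0.05, adjusted p = 0.306). The catalytic subunits POLR1A and POLR1B and the ribosomal DNA binding factor UBTF were not called, at 0.07, 0.03 and 0.05. POLR1B was called higher with the GC trend removed (0.17, adjusted p = 0.0011) and in that fit with the other compounds as the comparison group (0.16, adjusted p = 0.000229).

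In the box C/D particle, RRP9 and NOP56 were higher and the other 3 genes were not called. RRP9, a protein of the U3 particle needed for the earliest cleavages, had 40.7, 39.9 and 40.5 CPM with JQ-1, against 25.3, 28.6 and 26.9 CPM in untreated cells (log2 fold change 0.58, SE 0.057, adjusted p = 2.99e-09). NOP56, a core scaffold protein, had 159, 153 and 157 CPM with JQ-1, against 113, 118 and 112 CPM in untreated cells (0.45, SE 0.035, adjusted p = 6.59e-11). Neither gene's groups overlapped. NOP58, the paralogous scaffold that pairs with NOP56 in the same particle, was at 91.7, 92.4 and 87.0 CPM with JQ-1 and 87.6, 91.3 and 95.04 CPM in untreated cells, with overlapping groups (-0.01, adjusted p = 0.768). NOP58 was called higher with the GC trend removed (0.20, adjusted p = 9.15e-05), so its call depended on that correction. FBL (0.12) and NOLC1 (-0.05), a chaperone of both particle types, were not called.

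In the box H/ACA particle, 3 of 4 genes were lower with JQ-1 and none higher. GAR1, a core protein of the particle, had 14.5, 13.5 and 16.2 CPM with JQ-1, against 27.7, 28.3 and 29.9 CPM in untreated cells. The groups did not overlap, and the log2 fold change was -0.97 (SE 0.071, adjusted p = 2.3e-11). DKC1, the pseudouridine synthase, was lower by far less (-0.20, SE 0.038, adjusted p = 6.86e-05), at 83.3, 84.1 and 86.4 CPM with JQ-1 and 95.5, 98.5 and 96.8 CPM in untreated cells, and was at -0.11 with the GC trend removed (adjusted p = 0.0115). NOP10 was at -0.15 with overlapping groups (adjusted p = 0.0427) and was not called with the GC trend removed, and NHP2 was at 0.01 (not called).

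Of 13 genes of small subunit processing, 6 were higher with JQ-1, 4 lower and 3 not called. NOP9, an RNA-binding factor of the early precursor, had 73.7, 69.9 and 78.0 CPM with JQ-1, against 51.6, 48.8 and 44.6 CPM in untreated cells (log2 fold change 0.61, SE 0.058, adjusted p = 1.95e-09). UTP6, a processome component, had 89.5, 91.4 and 89.9 CPM with JQ-1, against 61.5, 64.8 and 64.6 CPM in untreated cells (0.51, SE 0.041, adjusted p = 1.46e-10). Both genes were clear of overlap, and both kept their call with the GC trend removed (0.64 and 0.69). The smaller rises were those of UTP14A (0.23), RRP12 (0.19), known in yeast as an export factor, NOP14 (0.16) and NAT10 (0.13), which acetylates small subunit RNA. UTP20, a large scaffold protein, had 33.7, 34.7 and 35.7 CPM with JQ-1, against 49.9, 45.1 and 41.9 CPM in untreated cells, and its groups did not overlap. The lower genes were UTP14C (-0.45), UTP20 (-0.40), UTP3 (-0.29) and UTP15 (-0.21), the last not called with the GC trend removed (0.04, adjusted p = 0.508). The other 3 kept their call in that fit at smaller values, -0.24 for UTP14C, -0.20 for UTP20 and -0.14 for UTP3. WDR43, UTP18 and UTP23 were not called. The value of WDR43 was -0.06, and it changed sign to a called 0.17 with the GC trend removed (adjusted p = 0.000114). NOP9, NOP14, UTP14A and UTP14C had fractional counts in all 21 libraries, so part of their reads was shared with other genes; the same holds for NPM1, and in some libraries for DKC1, PPAN and UTP23.

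The large subunit group held the largest rise and the largest fall among the 42. BOP1, WDR12 and PES1 form the PeBoW complex, which is needed to process the large subunit precursor. BOP1 had 81.3, 89.1 and 85.2 CPM with JQ-1, against 39.8, 45.6 and 43.6 CPM in untreated cells, a 1.99-fold difference with no overlap (log2 fold change 0.99, SE 0.061, adjusted p = 9.85e-13). WDR12 moved the other way, at 27.6, 26.2 and 27.4 CPM with JQ-1 and 39.8, 39.0 and 39.8 CPM in untreated cells (-0.55, SE 0.045, adjusted p = 1.44e-10, and -0.32 with the GC trend removed). PES1 was at 94.1, 88.7 and 92.4 CPM with JQ-1, against 82.1, 89.7 and 85.8 CPM in untreated cells, with overlapping groups and a small called difference (0.10, SE 0.042, adjusted p = 0.0432). The 3 messenger RNAs of this complex thus moved unequally in the same libraries.

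BRIX1, an early large subunit assembly factor, had 32.1, 36.4 and 37.0 CPM with JQ-1, against 78.0, 76.2 and 82.1 CPM in untreated cells. Its level with JQ-1 was 0.446 of the untreated level (log2 fold change -1.17, SE 0.052, adjusted p = 2.96e-15), with a wide gap between the groups. RRS1, known in yeast for loading the 5S particle, was lower too (-0.30, adjusted p = 2.22e-06), as were NOP16 (-0.26) and MRTO4 (-0.21), a relative of the ribosomal stalk protein. NOP2, a methyltransferase of large subunit RNA, was higher (0.20, adjusted p = 0.000377), and PPAN, an assembly factor related to BRIX1, was not called (-0.09, adjusted p = 0.168). PPAN was called lower with the GC trend removed (-0.22, adjusted p = 0.000525).

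Of the 4 nucleolar proteins with several roles, the RNA helicase DDX21 was lower with JQ-1. It had 322, 321 and 314 CPM with JQ-1, against 468, 438 and 450 CPM in untreated cells, without overlap (log2 fold change -0.50, SE 0.041, adjusted p = 1.21e-10, and -0.28 with the GC trend removed). NPM1 (0.14, adjusted p = 0.019) and GNL3, nucleostemin (0.08, adjusted p = 0.0404), were slightly higher, and NCL (0.04) was not called. In the fit without the GC trend NPM1 was at 0.32 and GNL3 at 0.26, and NCL was called higher (0.14, adjusted p = 0.000571). Across all roles, 12 members rose and 12 fell with JQ-1 in 3 fits at once (background 34.1 and 30.2%): TMM alone, the GC trend removed, and the GC trend removed with the other 5 compounds as the comparison group. The higher calls not shared by all 3 fits were UTP14A, NAT10 and PES1. The 24 members called in all 3 fits include every member named above with a change of at least 0.30 in size.

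**Figure D2:**
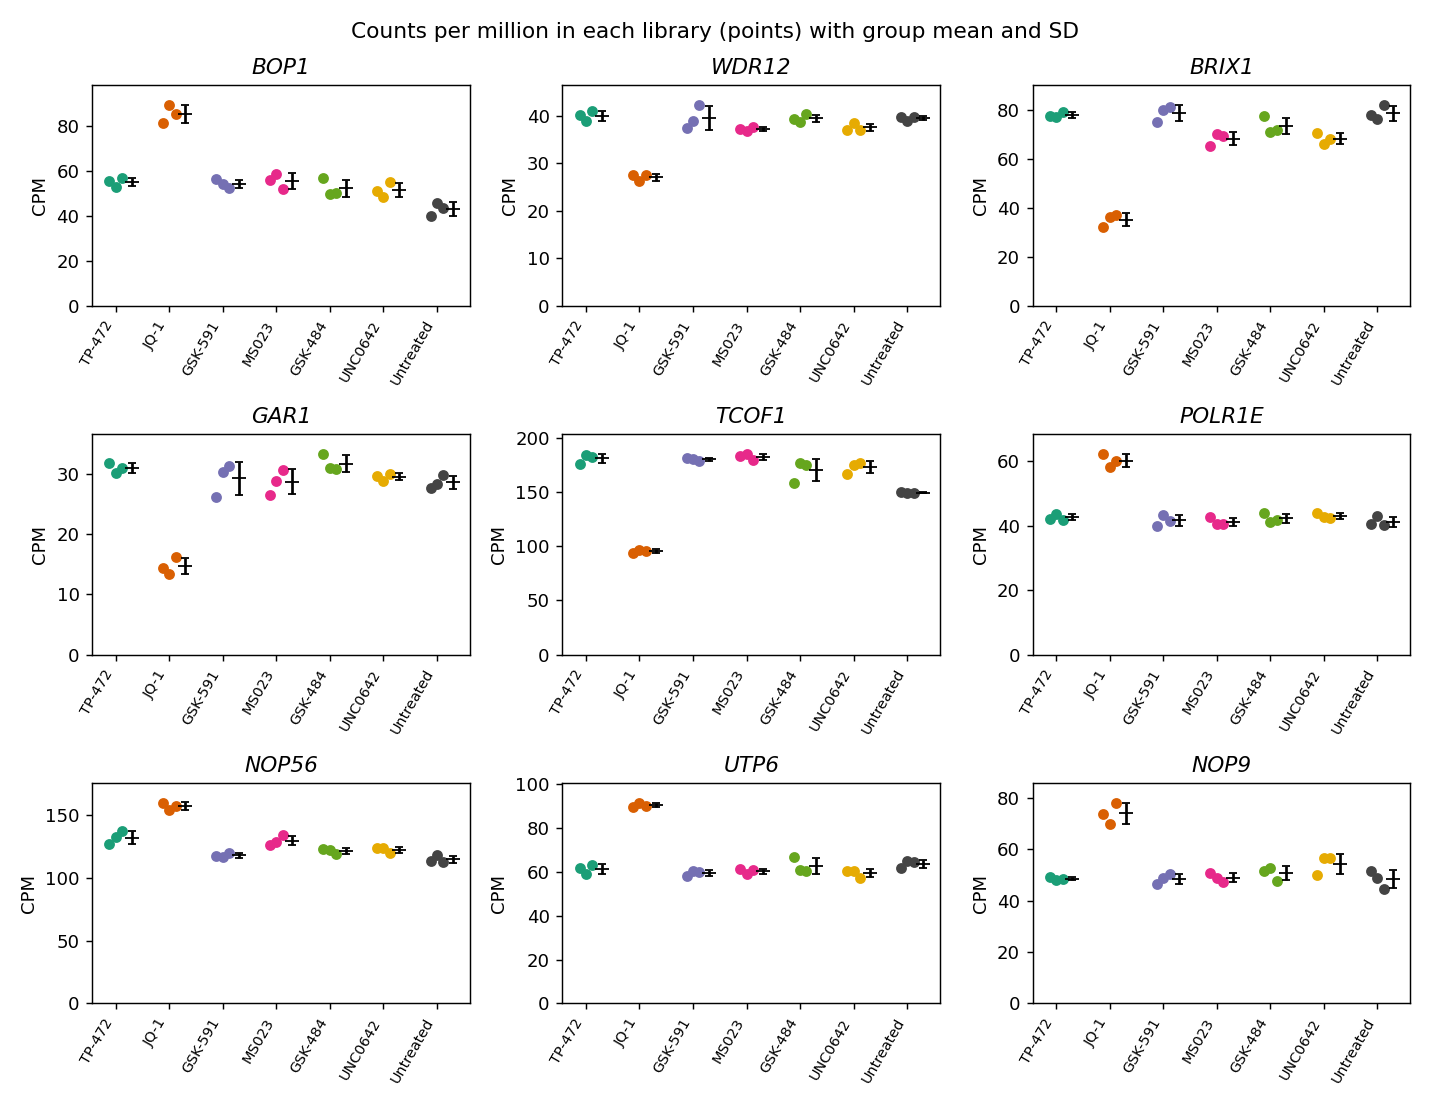
CPM (y axis, from 0) of 9 genes in each of the 21 libraries, by compound with untreated cells last; points are libraries and bars are the group mean and SD. The JQ-1 libraries of BRIX1 lie between 32.1 and 37.0 CPM, below all other 18 libraries, and those of BOP1 between 81.3 and 89.1 CPM, above all others.

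By promoter letters, 6 of the 12 promoters of members higher with JQ-1 held an E-box, against 3 of 13 for those lower and 3 of 9 for those not called. The ETS-type motif was in 2 of 12, 6 of 13 and 3 of 9 promoters in the same order. These counts are small and were not tested.

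TP-472 was set directly against JQ-1, since both bind bromodomains of different families. In that contrast 19 members were higher with TP-472 and 14 lower (background 37.5 and 34.8%). The largest positive differences, TP-472 over JQ-1, were BRIX1 (log2 1.15, SE 0.052), GAR1 (1.08, SE 0.071), TCOF1 (0.92, SE 0.038) and WDR12 (0.56, SE 0.0445). The largest negative ones were BOP1 (-0.63, SE 0.0602), NOP9 (-0.61, SE 0.058), UTP6 (-0.56, SE 0.041) and POLR1E (-0.50, SE 0.043). BRIX1 had 77.6, 77.2 and 79.3 CPM with TP-472, against 32.1, 36.4 and 37.0 CPM with JQ-1, and the 2 groups did not overlap. All 4 box H/ACA genes were higher with TP-472 than with JQ-1, although NHP2 (0.17) lost its call with the GC trend removed. That fit gave 14 members higher and 18 lower (background 32.7 and 42.7%), and scaling by total counts gave 26 higher and 7 lower. Under total-count scaling 10768 of 15062 genes were called, 63.8% of them higher with TP-472. The median of all genes was -0.085 with the GC trend removed and 0.15 under total-count scaling.

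The 5 compounds other than JQ-1 moved these genes by small amounts, and no member changed 1.5-fold with any of them. The share of all genes tested that changed 1.5-fold was not counted for these compounds. Between their quartiles, genes in general also moved little. The quartiles of log2 fold change lay farthest apart with MS023, at -0.18 and 0.20 for all genes tested. They were -0.084 and 0.19 for the members with MS023. Quartiles do not show how many genes changed 1.5-fold. Whether the absence of such changes sets the members apart from other genes was not tested. With TP-472, 11 members were higher and 3 lower (background 17.3 and 14.5%). With GSK-591, 12 were higher and 3 lower (18.1 and 14.8%), and with MS023, 14 were higher and 9 lower (22 and 20.6%). With GSK-484, 9 were higher and 1 lower (11.4 and 7.66%), and with UNC0642, 9 were higher and 1 lower (8.71 and 7.54%). Scaling by total counts gave 8 higher and 8 lower with GSK-591, 11 and 12 with MS023, and 7 and 2 with UNC0642. Of all genes called under that scaling, 32.1% were higher with GSK-591 (4901 called), 38.9% with MS023 (6541) and 29.7% with UNC0642 (2338). BOP1, RRP9 and NAT10 were called higher with all 6 compounds under TMM scaling, as were 2.54% of all genes tested, although NAT10 was not called with JQ-1 or GSK-591 under total-count scaling. With the GC trend removed, RRP9 lay between 0.066 and 0.115 with the 5 compounds other than JQ-1 and was called with none of them, and NAT10 was not called with GSK-591 or GSK-484. BOP1 lay at 0.35 with TP-472, 0.34 with GSK-591, 0.37 with MS023, 0.28 with GSK-484 and 0.26 with UNC0642, on the log2 scale over untreated cells.

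These small changes were ordered by base composition. With TP-472, the 11 higher members had transcript GC contents of 51.6 to 65.2% and the 3 lower ones 40.3 to 42.3%. With MS023, the 9 lower members lay between 37.0 and 44.8%, and the 14 higher ones had a median of 57.1%. Across the 42 genes, which share libraries and are not independent, Spearman's rho between log2 fold change and GC content was 0.851 with TP-472, 0.663 with GSK-591, 0.826 with MS023, 0.756 with GSK-484 and 0.782 with UNC0642. It was 0.396 with JQ-1. With the GC trend removed the same values lay between -0.277 and 0.252. That fit subtracts a trend on this same GC content, so the loss of the correlation follows from the correction and is no separate result.

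Removal of the GC trend ended most of these calls and added a few others. TP-472 gave 4 members higher and 1 lower (background 4.99 and 5.71%), GSK-591 gave 5 higher and 0 lower (7.97 and 4.7%), MS023 5 and 0 (9.72 and 5.96%) and UNC0642 2 and 0 (0.988 and 1.59%). Of the calls in the uncorrected fit, those kept were NAT10, PES1 and UTP20 with TP-472, NOP58, PES1 and UTP14A with GSK-591, NAT10, NOP58, PPAN and UTP14A with MS023, and NAT10 and POLR1A with UNC0642. The calls added were NOP58 and WDR12 with TP-472, GNL3 and WDR12 with GSK-591, and POLR1C with MS023, all higher. GSK-484 gave 0 of 42 by edgeR's quasi-likelihood test, with 10 at an unadjusted p under 0.05 (0.336% of all genes were called), and DESeq2 without that correction called 8 higher and 1 lower. BOP1, at 65.2% GC, then lay between 0.03 and 0.09 with these 5 compounds and was not called. TCOF1, at 59.4% GC, was called higher with all 5 in the uncorrected fit (0.19 to 0.29) and with none after correction (0.03 to 0.10).

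**Figure D3:**
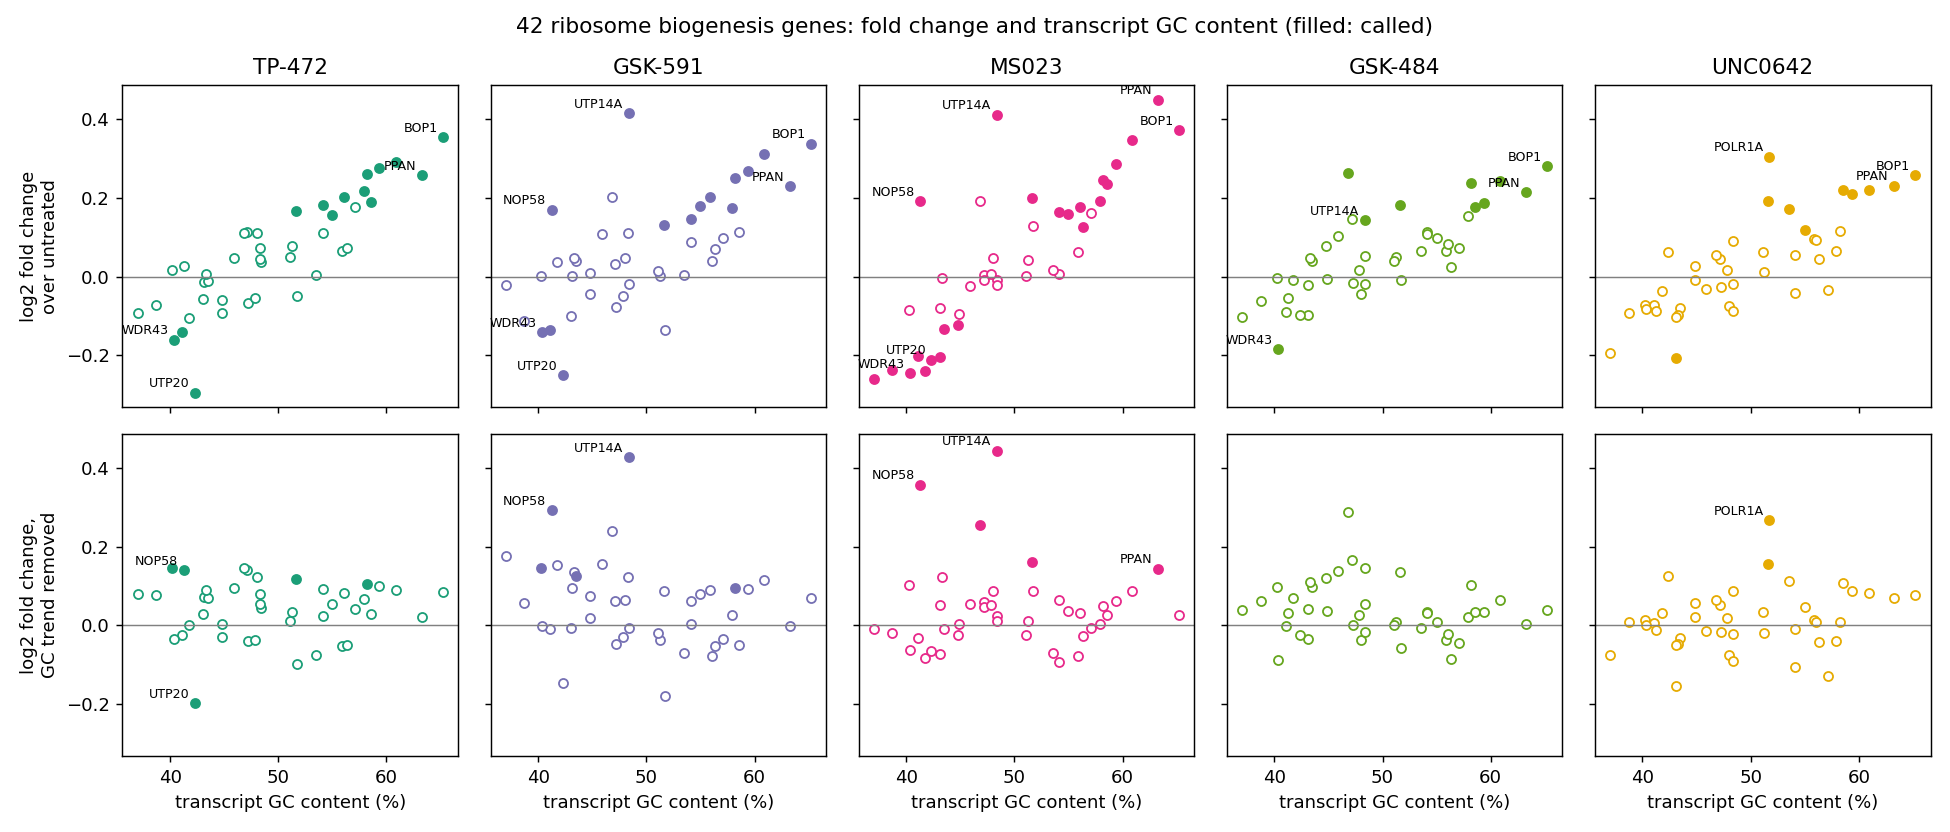
Log2 fold change over untreated cells (y axis) against transcript GC content in percent (x axis) of the 42 genes for 5 compounds, before (top) and after (bottom) removal of the GC trend; filled points are called. The upward slope in the top panels, with rho of 0.663 to 0.851, is taken out below by the correction itself. UTP14A and NOP58 stand out in the bottom panels with GSK-591 and MS023.

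The arginine methyltransferase inhibitors GSK-591 and MS023 shared 2 members called higher in all 3 fits, UTP14A and NOP58. With GSK-591 these were the 2 such members (background 2.45%), and MS023 had 3 (3.47%). UTP14A, a processome protein, had 39.3, 35.7 and 38.9 CPM with GSK-591 and 39.4, 37.8 and 36.6 CPM with MS023, against 29.2, 29.1 and 27.3 CPM in untreated cells. No library of either compound overlapped the untreated ones. The log2 fold changes were 0.42 with GSK-591 (SE 0.049, adjusted p = 7.18e-06) and 0.41 with MS023 (SE 0.048, adjusted p = 1.29e-06). They were 0.43 and 0.44 with the GC trend removed, and 0.24 and 0.26 when the other compounds except JQ-1 then took the place of untreated cells. That comparison group held MS023 for GSK-591 and GSK-591 for MS023, so each value was set partly against the other raised group.

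UTP14A lies on the X chromosome, and UTP14C, on chromosome 13, is a copy of it that arose by retrotransposition, so reads can be divided between them. Summed over the pair, levels were 57.6 ± 1.19 CPM with GSK-591 and 54.1 ± 0.888 CPM with MS023, against 47.6 ± 2.24 CPM in untreated cells (SD, n = 3 each). The summed ranges did not overlap the untreated range of 45.02 to 48.9 CPM. UTP14A took 65.9% of the sum with GSK-591, 70.1% with MS023 and 70.4% with JQ-1, against 59.9% in untreated cells. The sum with JQ-1, 47.4 ± 1.22 CPM, lay within the untreated range, and the opposite JQ-1 changes of the 2 genes appear as a higher UTP14A share. How the counting divided the reads is not known from these files, and each gene's own value is uncertain to that extent.

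NOP58 had 99.1, 105 and 104 CPM with GSK-591 and 106, 102 and 105 CPM with MS023, against 87.6, 91.3 and 95.04 CPM in untreated cells. All 6 treated libraries were above all 3 untreated ones. The log2 fold changes were 0.17 with GSK-591 (SE 0.040, adjusted p = 0.0024) and 0.19 with MS023 (adjusted p = 0.000453), and 0.29 and 0.36 with the GC trend removed. With total-count scaling the GSK-591 value was 0.11 and not called (adjusted p = 0.0952). PPAN was called in all 3 fits with MS023, at 39.1, 39.6 and 37.5 CPM, against 25.6, 30.1 and 29.5 CPM in untreated cells. Its log2 fold change was 0.45 (SE 0.053, adjusted p = 1.45e-06) before and 0.14 (adjusted p = 0.0495) after removal of the GC trend, a value just inside the threshold. Reads of PPAN can also be assigned to the read-through gene PPAN-P2RY11, which was at 0.268 CPM with MS023 and 0.460 CPM in untreated cells.

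**Figure D4:**
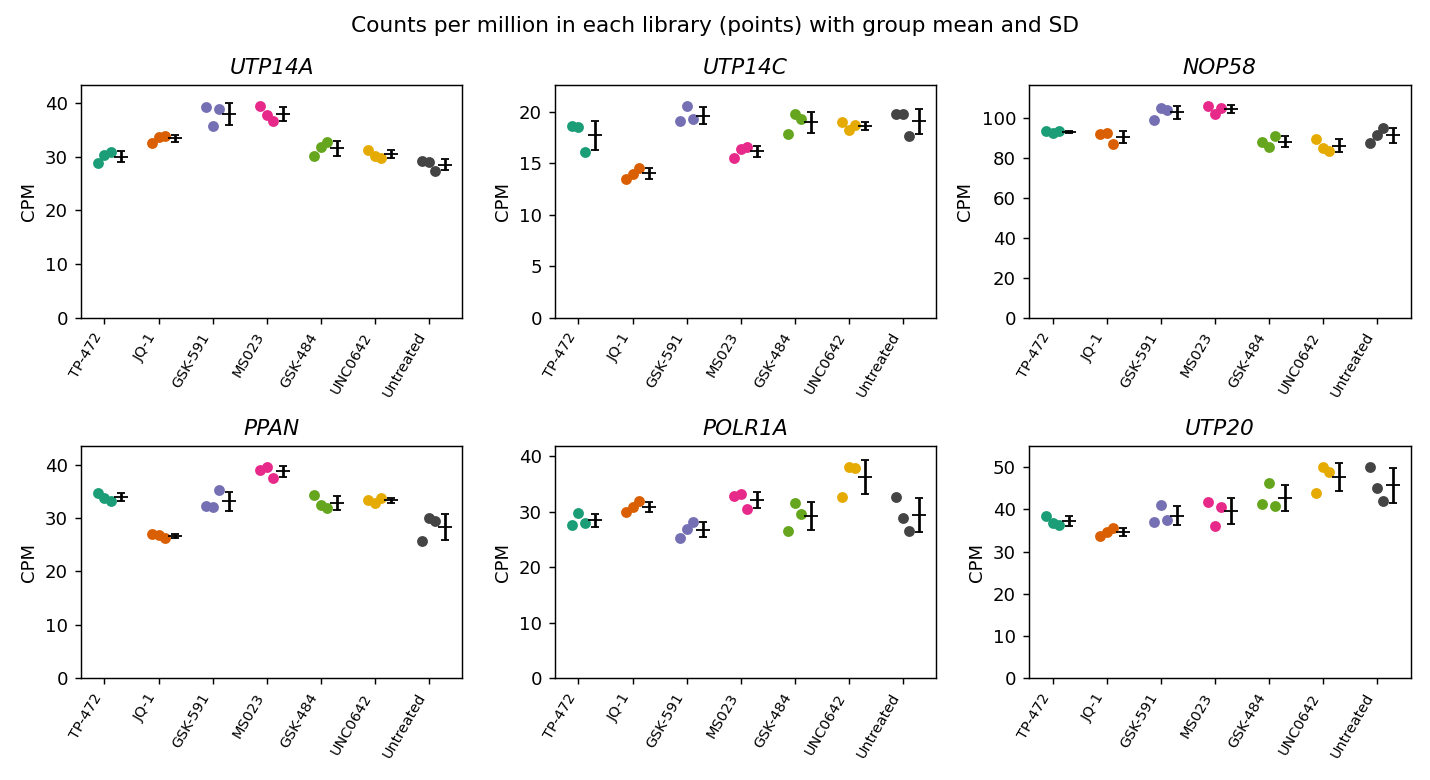
CPM (y axis, from 0) of UTP14A, UTP14C, NOP58, PPAN, POLR1A and UTP20 in each library, by compound with untreated cells last; points are libraries and bars the group mean and SD. UTP14A lies between 35.7 and 39.4 CPM in the GSK-591 and MS023 libraries, against 27.3 to 29.2 CPM in untreated cells.

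FBL, NCL and GAR1 carry arginine and glycine rich repeats that are known substrates of arginine methylation. FBL messenger RNA was higher with both inhibitors in the uncorrected fit (0.17 with GSK-591, 0.19 with MS023) and called with neither after removal of the GC trend (adjusted p = 0.807 and 0.985). NCL and GAR1 were not called with either inhibitor. Set directly against MS023, GSK-591 gave 3 members higher and 3 lower (background 5.43 and 4.46%). The higher ones were UTP14C (log2 0.28), BRIX1 (0.21) and GNL3 (0.17), and the lower ones POLR1A (-0.26), PPAN (-0.22) and NOP56 (-0.14). BRIX1 had 75.04, 80.2 and 81.4 CPM with GSK-591, against 65.3, 70.2 and 69.4 CPM with MS023, without overlap. PPAN lost its call with the GC trend removed (-0.15, adjusted p = 0.0649), while the other 5 kept theirs. The difference between the inhibitors, GSK-591 minus MS023, was 0.0039 in UTP14A and -0.02 in NOP58, and neither was called.

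UTP20 was the 1 member called in all 3 fits with TP-472 (background 2.53% for lower genes). It had 38.5, 36.9 and 36.3 CPM with TP-472, against 49.9, 45.1 and 41.9 CPM in untreated cells. The groups did not overlap, with a log2 fold change of -0.30 (SE 0.068, adjusted p = 0.00227), and of -0.20 with the GC trend removed (adjusted p = 0.0374). Untreated libraries differed more in this gene (45.6 ± 4.04 CPM, SD, n = 3) than the TP-472 ones. UTP20 was also lower with JQ-1 (-0.40), GSK-591 (-0.25) and MS023 (-0.21), of which the JQ-1 call alone was kept in the fit without the GC trend.

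POLR1A was the 1 member called in all 3 fits with UNC0642, as higher (background 0.59%). POLR1A had 32.6, 38.0 and 37.8 CPM with UNC0642, against 32.5, 28.9 and 26.6 CPM in untreated cells, so the lowest treated library and the highest untreated one were nearly level. The log2 fold change was 0.30 (SE 0.071, adjusted p = 0.00665) before and 0.27 (adjusted p = 0.0462) after removal of the GC trend. POLR1B, which forms the active centre with POLR1A, was not called with UNC0642. BRIX1 was the member called lower with UNC0642 in the uncorrected fit, at 70.9, 66.2 and 68.1 CPM, against 78.0, 76.2 and 82.1 CPM in untreated cells (-0.21, SE 0.049, adjusted p = 0.00732). It lost its call with the GC trend removed (-0.15, adjusted p = 0.102). With the other compounds except JQ-1 then as the comparison group, BRIX1 was called lower again (-0.17). In that fit 9 members were lower with UNC0642 (21.4%, background 14.4%).

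GSK-484 left no member called in all 3 fits. POLR1C, whose transcript has 46.8% GC, had 20.3, 15.04 and 16.0 CPM with GSK-484, against 12.7, 15.2 and 14.99 CPM in untreated cells. The groups overlapped and 1 treated library stood above the others (log2 fold change 0.26, adjusted p = 0.0302), and the call was lost without either that library or untreated replicate 1. Fitting the GSK-484 and untreated libraries alone called 0 members, with 9 members at an unadjusted p under 0.05, and called 9 of 14430 genes in all. Without untreated replicate 1 the count of members higher with GSK-484 was 5, against 9 with it, and the count lower with GSK-591 was 0, against 3 with it.

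**Figure D5:**
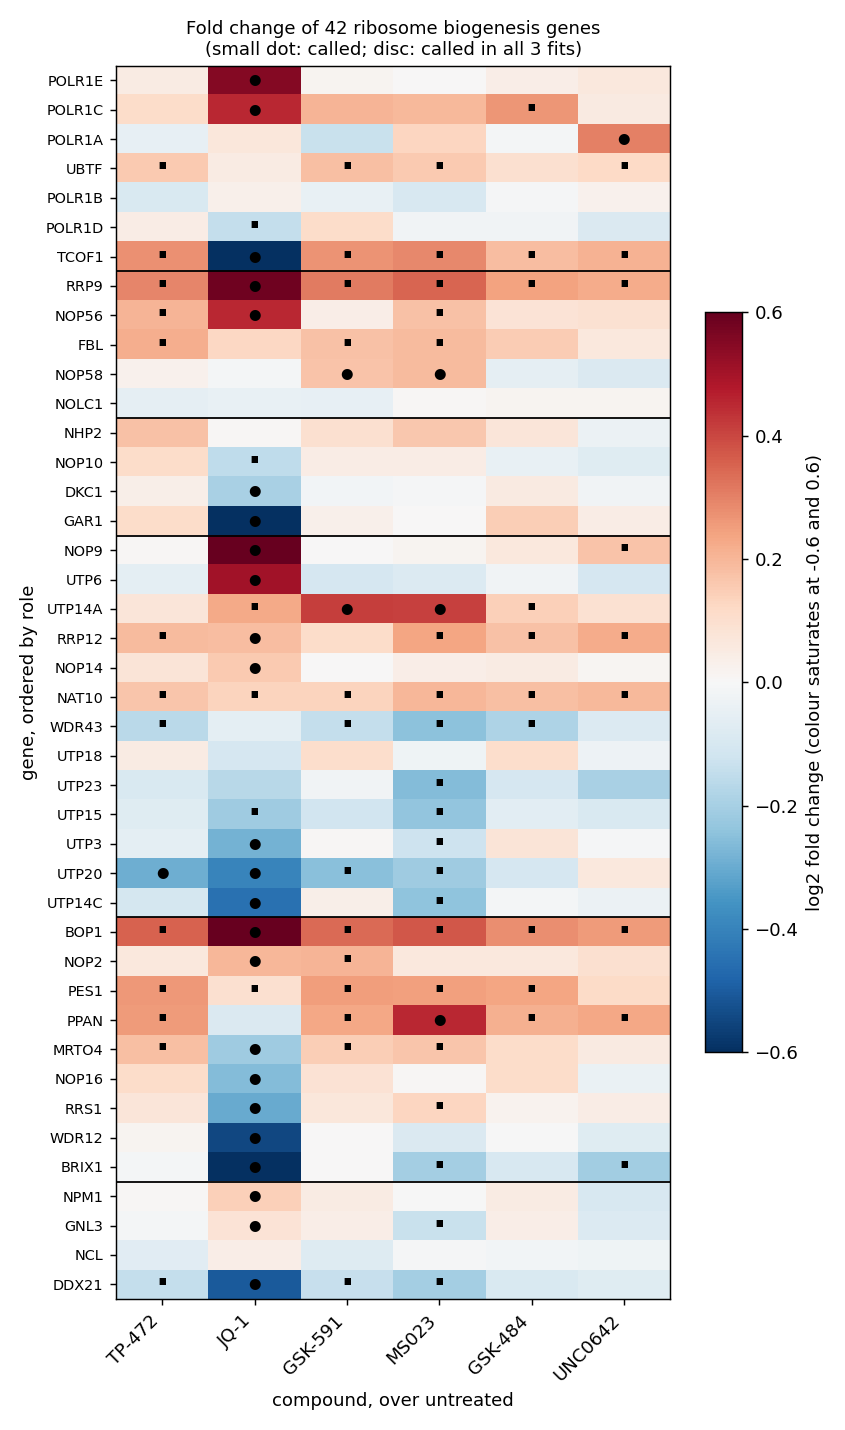
Log2 fold change over untreated cells (colour, saturating at -0.6 and 0.6) of the 42 genes (rows, ordered by role, black lines between roles) with each compound (columns). Small dots mark calls and discs mark calls in all 3 fits; 24 of the discs are in the JQ-1 column, and 7 in the other columns.

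Counted over all compounds, 37 of the 42 members were called with at least 1 compound in the uncorrected fit (background 85.3%), and 28 were called in all 3 fits with at least 1 (68.3%). NCL, NHP2, NOLC1, POLR1B and UTP18 were called with none in the uncorrected fit. In that fit 19 members were called higher and never lower (background 33.4%), 14 lower and never higher (35.4%), and 4 in both directions with different compounds (16.5%). Those 4 were GNL3, MRTO4, RRS1 and TCOF1. TCOF1 was lower with JQ-1 and higher with the other 5, and MRTO4 was lower with JQ-1 and higher with TP-472, GSK-591 and MS023. In all 4 genes the call with JQ-1 was kept with the GC trend removed, and the opposite calls with other compounds were not.

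The rest of the pathway was read from 5 lists of 112 further genes, all of them tested. The counts with JQ-1 stand beside 35.7% higher and 37.6% lower among all genes tested, and beside 43.1 and 32.3% with the GC trend removed. The 14 other RNA polymerase I subunits and factors gave 6 higher and 4 lower with JQ-1, and 7 and 2 with the GC trend removed. POLR2L (log2 fold change 0.77) and POLR2E (0.75), small subunits shared by RNA polymerases I, II and III, were the largest rises. ZNRD1 (-0.76) and POLR2K (-0.39), also small subunits, were the largest falls, and POLR2K lost its call with the GC trend removed (-0.095).

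Of 28 other processome genes, 10 were higher with JQ-1, among them PDCD11 (0.62) and RRP7A (0.55), and 13 lower, among them KRR1 (-1.07) and WDR75 (-0.58, and -0.34 with the GC trend removed). With the GC trend removed 11 were higher and 8 lower, and the median of the list was 0.083, against -0.096 before. The median of all genes was 0.087 in that fit, against -0.0064 before. Of 45 other large subunit factors, 14 were higher, led by EFTUD1 (0.74) and the helicase DDX27 (0.61), and 14 lower, led by NIP7 (-0.66) and MAK16 (-0.64). Removal of the GC trend gave 23 higher and 8 lower among those with a known GC content, which EFTUD1 lacks.

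The nuclear RNA exosome, which trims precursor ends, gave 8 of 14 genes lower and 1 higher with JQ-1, with a median of -0.23. After removal of the GC trend it gave 7 lower and 6 higher, with a median of -0.065, against 0.087 for all genes in that fit. EXOSC9 fell by 0.97 and its cofactor C1D fell by 0.79, both on the log2 scale, and C1D was at -0.34 with the GC trend removed. EXOSC2 rose by 0.17. Of 11 late small subunit factors, 4 were lower, including LTV1 (-0.68) and the endonuclease NOB1 (-0.33), and RIOK1 (0.26) was higher, while with the GC trend removed 5 were higher and 4 lower. Of the 112 genes, 21 were higher and 2 lower with MS023 after removal of the GC trend (9.72 and 5.96% of all genes). This was not particular to MS023. In the same fit the other large subunit factors gave 16 higher and 0 lower with GSK-591 (7.97 and 4.7% of all genes). They gave 12 and 0 with TP-472 (4.99 and 5.71%), 11 and 1 with MS023, and 1 and 0 with UNC0642. With GSK-484, 0 of the 112 genes were called in that fit.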

How the data were processed

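The 42 genes, their roles and the further gene lists were chosen with earlier results of these data known, as were the named genes: per comparison, up to 6 called members from each end of the fold changes, and members called in all fits. Per the labels' protocols, RNA was extracted with Trizol and purified on columns, and per the series' design text it was poly-A selected and sequenced on an Illumina HiSeq instrument. The deposited table holds expected counts per gene, which the authors made with Bowtie2 2.1.0 and RSEM 1.2.15 on build hg38, per the submitters' processing notes. Annotation, strand setting and read filters: not given in the sources used here.

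Expected counts were rounded, filtered with filterByExpr of edgeR 4.0.16 in R 4.3.3 (at least 10 counts in enough libraries, at least 15 in sum), and TMM factors were computed. All 21 libraries were fitted with group as the term, and contrasts were tested with edgeR's two-sided quasi-likelihood F test, with Benjamini-Hochberg adjustment over 15062 genes. Fold changes use a prior count of 0.125, and standard errors follow from the F statistic. The labels call the replicates biological without naming separate cultures, so p-values measure the spread between these samples. The common biological coefficient of variation was 5.09%. Between replicates, chi-square per degree of freedom was 3.41 to 58.0, so no pair was 1 library deposited in duplicate.

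Dependence on base composition was fitted per library by loess (limma 3.58.1, span 0.3, 4 iterations, log2 CPM with prior count 2) and entered as an offset for the 14572 tested genes (96.7%) with a GC content from the longest coding GENCODE 29 transcript. The third fit compared each compound, after that step, with the remaining compounds other than JQ-1 (JQ-1 itself with the remaining 5). DESeq2 1.42.0 was an alternative. Code was tested on simulated data. Promoters are RefSeq's (GRCh38.p14), and 8 members had no entry.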

Additional observations from a re-analysis of the deposited data

How the results depend on the processing

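Named members (74 pairs of gene and comparison) kept direction and call with DESeq2, RLE scaling, no filter on low counts and the replicate block, 73 of 74 with total-count scaling, 66 with the 2 groups compared fitted alone, 36 with the GC trend removed, 31 with replicate block and GC removal together, 20 of 56 with the third fit, and 414 of 444 with 1 replicate left out. The numbers of the replicates did not pair the samples: the median correlation of same-numbered libraries' deviations from their group means was -0.0024 (63 pairs, -0.160 to 0.137), against -0.0049 (126 pairs) for other numbers. The replicate block alone moved no count of calls by over 1.5 times (JQ-1, 14 higher and 15 lower), and no named call was lost under it.

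Counts of called members changed without the GC trend for each of the 5 compounds other than JQ-1. Higher and lower counts were 4 and 1 with TP-472 (11 and 3 with the trend), 5 and 0 with GSK-591 (12 and 3), 0 and 0 with GSK-484 (9 and 1), 5 and 0 with MS023 (14 and 9), and 2 and 0 with UNC0642 (9 and 1). With the replicate block as well they were 4 and 1, 4 and 0, 0 and 0, 3 and 0, and 1 and 0, and GSK-591 against MS023 had 1 lower (3 in the fit as reported). With the other treated groups as the reference too, counts were 1 higher with TP-472, 7 higher with GSK-591, 0 higher with GSK-484, 3 higher and 1 lower with MS023, and 4 higher and 9 lower with UNC0642. Total-count scaling gave 7 higher with JQ-1, 8 lower with GSK-591, 2 lower with UNC0642, and 7 lower for TP-472 against JQ-1. The 2 groups alone gave 0 and 0 with GSK-484, 2 lower with UNC0642, and 5 higher for GSK-591 against MS023. The cause was not tested beyond the GC values given.

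Leaving out each replicate gave 9 to 12 higher and 2 to 3 lower with TP-472, 12 to 15 and 13 to 17 with JQ-1, 10 to 12 and 0 to 4 with GSK-591, 5 to 10 and 1 to 3 with GSK-484, 12 to 15 and 7 to 9 with MS023, 7 to 9 and 0 to 1 with UNC0642, 16 to 18 and 11 to 12 for TP-472 against JQ-1, and 2 to 3 and 0 to 3 for GSK-591 against MS023. Counts moved by over 1.5 times without untreated replicate 1 (GSK-484 higher 5, GSK-591 lower 0), GSK-591 replicate 1 (lower 1, and 1 against MS023), GSK-591 replicate 2 (0 lower against MS023), MS023 replicate 2 (1 lower in that contrast), GSK-484 replicate 3 (3 lower) and UNC0642 replicate 2 (0 lower).

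Directions turned round in the third fit, each uncalled: PPAN was -0.033 with TP-472, -0.062 with GSK-591 and -0.055 with GSK-484, WDR43 was 0.0037 with TP-472 and 0.044 with GSK-591, DDX21 was 0.0048 with GSK-591, BOP1 was -0.027 with GSK-484 and -0.042 with MS023, RRP9 was -0.028 with GSK-484 and -0.0074 with UNC0642, TCOF1 was -0.052 with GSK-484 and -0.016 with MS023, and PES1 was -0.029 with MS023. PPAN with GSK-591 was also -0.0021 with the GC trend removed and -0.0032 with the replicate block as well. With the block and GC removal together, PPAN with MS023 (0.14, adjusted p = 0.0614) and POLR1A with UNC0642 (0.26, adjusted p = 0.0582) were not called. Depth was ample: the lowest count of any member in a library was 351 (POLR1C).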
